A study of Mus musculus with 6 samples.

Results

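Macrophages carrying much MHC class II RNA were singled out among single testis cells of mice exposed to cigarette smoke or not. A cell barcode counted as a macrophage when mitochondrial transcripts were at most 20% of its UMIs (unique molecular identifiers, each standing for 1 captured RNA molecule) and C1qa, C1qb, C1qc, Csf1r, Adgre1 and Mrc1 gave at least 6 UMIs from at least 3 of these genes. It counted as class II-high when Cd74, H2-Aa, H2-Ab1 and H2-Eb1 gave at least 8 UMIs together. Of 54253 deposited barcodes, 51794 met the mitochondrial limit and 402 of those were macrophages. The class II-high macrophages were 139 of the 402, and the other 263 are called class II-low here. Since these 10 genes chose the cells, their levels are given as a description. They were left out of the test between the classes. The test of smoking against control did not leave them out, and their values there are read as a description only.

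The study held 3 control and 3 smoking libraries of left testis from male ICR mice, an outbred stock, with no deleted gene, transgene or sorting for a cell type in either group. Smoking mice spent 30 minutes a day for 12 weeks in a chamber with the smoke of 15 cigarettes, each of 1.1 mg nicotine and 11 mg tar, and control mice were put in the chamber without cigarettes. The labels give an age of 8 weeks, while their schedule gives purchase at 6 weeks, 1 week of adaptation and then the exposure. They name 7 mice per group and do not tie a library to a mouse, so each p-value speaks of the spread among 6 libraries and not of that among mice.

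Macrophages are the main immune cells of the testis. One population lies between the tubules beside the testosterone-producing Leydig cells, and another, richer in MHC class II, lies on the tubule wall. MHC class II is a surface dimer that shows peptides from engulfed proteins to helper T cells. Cd74, the invariant chain, guards the empty dimer and the H2-DM proteins load the peptide. Ciita, the class II transactivator, switches this gene group on.

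The upstream stretches of 3 class II genes are shown because these genes separate the cells described here, as rule genes (H2-Aa, H2-Eb1) or as a gene outside the rule that was higher in them (H2-DMb1). Each covers the 140 bases before the RefSeq transcription start on GRCm38.p6, the patch series of the mm10 build: H2-Aa at chr17:34287824-34287963 on the minus strand, H2-Eb1 at chr17:34305727-34305866 and H2-DMb1 at chr17:34153051-34153190, both on the plus strand. Capitals mark ATTGG, the core of the Y box, and AACNGATG, the core of the X box, on either strand.
H2-Aa: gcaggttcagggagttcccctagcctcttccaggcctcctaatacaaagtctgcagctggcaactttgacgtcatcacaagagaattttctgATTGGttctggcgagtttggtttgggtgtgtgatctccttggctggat
H2-Eb1: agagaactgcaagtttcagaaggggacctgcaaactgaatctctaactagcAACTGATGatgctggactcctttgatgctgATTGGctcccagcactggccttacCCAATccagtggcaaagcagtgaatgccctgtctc
H2-DMb1: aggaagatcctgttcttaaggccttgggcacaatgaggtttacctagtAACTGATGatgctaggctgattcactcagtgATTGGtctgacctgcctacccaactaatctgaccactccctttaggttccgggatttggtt
H2-Eb1 and H2-DMb1 hold both motifs, AACNGATG starting 89 and 92 bases before the start. The ATTGG matches begin 59 and 35 bases before the start in H2-Eb1 (the second on the other strand), 61 bases before it in H2-DMb1 and 48 bases before it in H2-Aa. Over all 32851 RefSeq promoter entries, 23.4% hold ATTGG or its complement in this window, 1.06% hold AACNGATG and 0.222% hold both. No AACNGATG lies in the H2-Aa window. H2-DMa, also outside the rule and higher in these cells, has 2 RefSeq entries, and neither motif lies in either window. A match describes these letters only.

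The libraries held 8598 to 9976 deposited barcodes with 39607204 to 78455606 UMIs. Libraries of a group are always given in the order 1 to 3. The class II-high macrophages numbered 16, 21 and 25 in the 3 controls and 22, 43 and 12 in smoking libraries 1 to 3. Their summed counts were 75973, 90316 and 122127 UMIs in controls and 91022, 663807 and 57148 in smoking libraries. Across libraries 365 barcode sequences occurred more than once, but no 2 class II-high macrophages shared one. Differences between all pairs of libraries were larger than sampling noise.

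One barcode stood apart from the other 138. It lay in smoking library 2, held 411540 UMIs from 10777 genes, and made up 62.0% of that library's class II-high sum; the next largest of these barcodes held 20678 UMIs. Its 34 class II UMIs were 33 of H2-Ab1 and 1 of H2-Aa, with none of Cd74 or H2-Eb1, and 7 of its 9 macrophage UMIs were C1qb. Transcripts of a 15-gene spermatid list, led by the protamines that pack sperm DNA, made up 15.1% of its UMIs. Both genes that carried it past the rule were also seen in 4311 other barcodes whose spermatid transcripts made up at least 20% of UMIs: 44.1% of these had an H2-Ab1 UMI and 40.5% a C1qb UMI. The partner genes H2-Aa, Cd74, C1qa and C1qc were seen in 0.510%, 0.325%, 0.441% and 0.278% of them, at a median of 20032 UMIs against 4698 in the class II-high macrophages. Of the 139, 120 still met both parts of the rule without counting H2-Ab1 and C1qb. The barcode stays in the main values as the rule demands, and the gene tests and the shares of cells are also given without it, an alternative chosen after the data were seen.

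The class II-high macrophages carried a median of 67 class II UMIs, with quartiles at 25 and 116 and a range of 8 to 262. All 4 class II genes were detected in 109 of the 139 and C1qa in 138. Among class II-low macrophages, 135 of 263 had no class II UMI at all. At the threshold, 17 macrophages had 6 or 7 class II UMIs and 8 had 8 or 9, with medians of 14.4 and 17.6 class II UMIs per 10000.

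**Figure D1:**
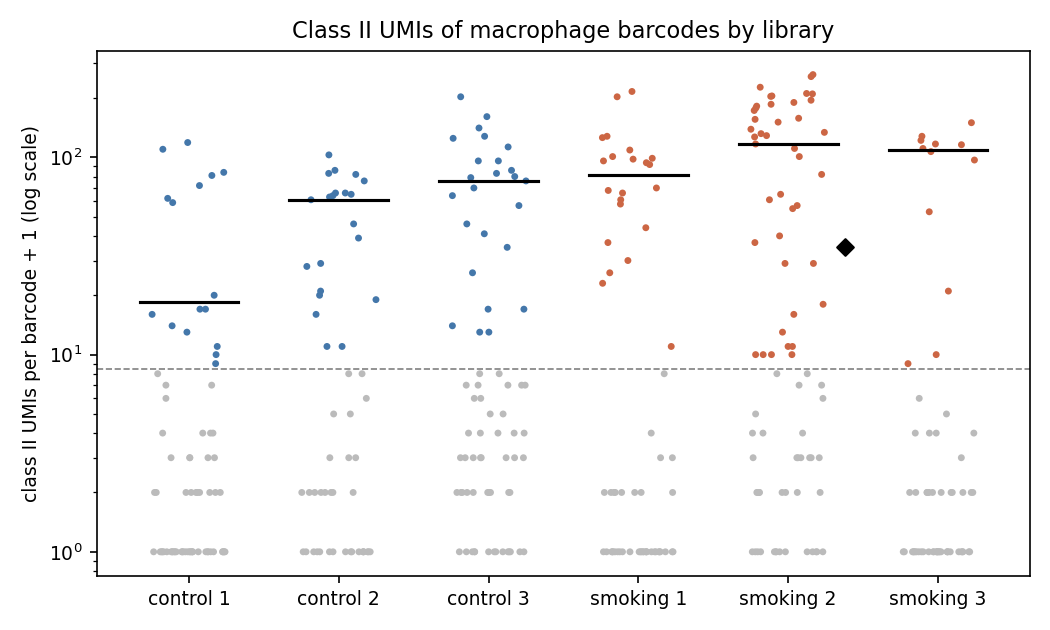
Class II UMIs plus 1 (log axis) of each of the 402 macrophage barcodes by library. Coloured points are class II-high (controls blue, smoking libraries orange), grey points are class II-low, bars mark the median of the class II-high barcodes, the dashed line is the threshold of 8 and the black diamond is the barcode of 411540 UMIs; most coloured points lie well above the line, except in control 1, whose median was 17.5.

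Levels below are UMIs per 10000 UMIs of a barcode, averaged over the barcodes of a class in a library, so that a deep barcode weighs no more than others. The Cd74 level in class II-high macrophages was 53.1, 73.3 and 101 in the 3 controls and 109, 105 and 112 in smoking libraries 1 to 3, against 0.720 to 2.498 in class II-low macrophages. H2-Aa, the alpha chain of the H2-A dimer, stood at 23.7, 23.9 and 35.8 in controls and 43.0, 41.5 and 38.8 in smoking libraries. H2-Ab1, its beta chain, stood at 19.2, 24.0 and 30.6 and at 38.9, 36.2 and 34.1. For all 3 genes every smoking library lay above every control library. These genes chose the cells through their sum, so they are not 3 separate results. With 3 libraries a group, an exact permutation test cannot go below p = 0.1 for such a separation. How many of all genes separate likewise was not counted. The smoke comparison below returns to the class II genes.

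H2-Eb1, the beta chain of the other class II dimer, was nearly missing in 1 library that had its partners. Its level was 13.2, 0.497 and 15.3 in the 3 controls and 20.1, 20.5 and 21.6 in smoking libraries 1 to 3. In control 2 only 4 H2-Eb1 UMIs were counted over 21 class II-high macrophages, in 4 of them, beside 204 UMIs of H2-Aa in all 21. For every 100 H2-Aa UMIs there were 1.96 H2-Eb1 UMIs in control 2, and 53.6, 41.1, 46.0, 48.6 and 55.4 in control 1, control 3 and smoking libraries 1 to 3. The gap reached beyond these cells: all barcodes of control 2 within the mitochondrial limit held 22 H2-Eb1 UMIs, those of the other libraries 151 to 548. Leaving H2-Eb1 out of the rule kept 21 cells in control 2 and removed 1 each in control 1 and smoking library 1.

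**Figure D2:**
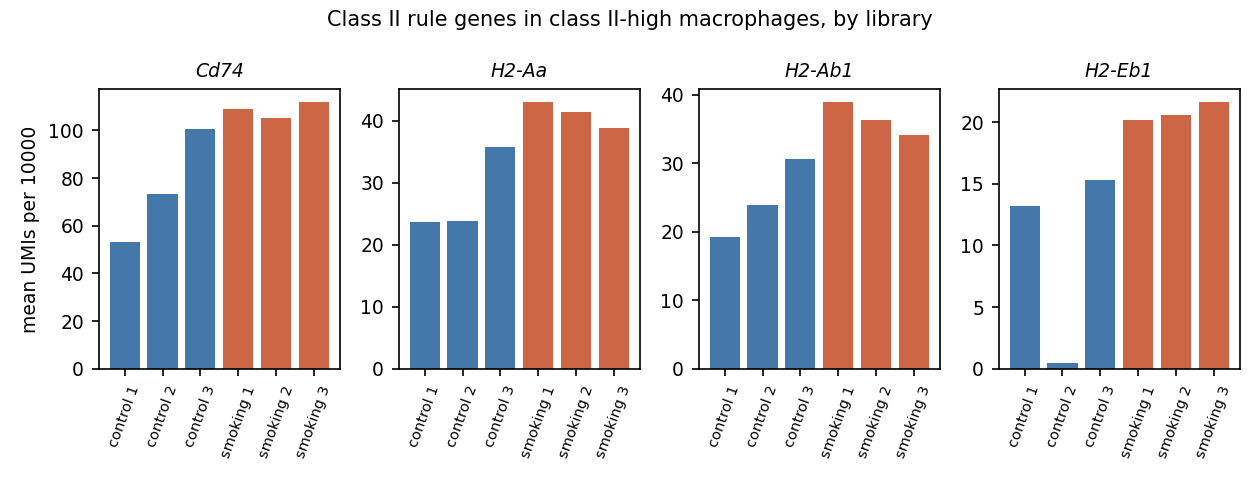
Mean level (UMIs per 10000) of the 4 class II rule genes in class II-high macrophages, 1 bar per library, controls in blue and smoking libraries in orange. H2-Eb1 stood at 0.497 in control 2 while Cd74, H2-Aa and H2-Ab1 were present there at 73.3, 23.9 and 24.0.

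The macrophage genes of the rule were all present in the class II-high cells. C1qa, which starts the classical complement pathway, stood at 32.9 ± 7.09 against 40.9 ± 3.82 in class II-low macrophages (SD, n = 6 libraries). Csf1r, the receptor for the growth factor on which macrophages depend, stood at 5.73 ± 1.56 against 8.28 ± 1.10. Mrc1, the mannose receptor, stood at 4.99 ± 0.775 against 8.29 ± 1.95, without overlap between the classes. Adgre1, which encodes the F4/80 antigen, stood at 1.51 ± 0.499 against 1.91 ± 0.466, with overlap.

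Genes outside the rule were compared between class II-high and class II-low macrophages of the same library with edgeR's quasi-likelihood test on summed counts, with library as a block and Benjamini-Hochberg adjustment over all genes tested. Of 3155 genes tested, 24 were higher in class II-high macrophages and 51 lower at adjusted p under 0.05 (0.761% and 1.62%, 2.38% together). Without the large barcode 3196 genes were tested, of which 125 were higher and 103 lower (3.91% and 3.22%, 7.13% together). Of the 75 genes called with it, 74 were also called without it, all in the same direction, and Emp1 was the exception. A fold change named below is log2, high over low, and the value without the large barcode follows it. A gene was tested when enough of the sums reached the minimum count, so it could enter through 1 class alone. Counts and medians of marker lists cover only the genes tested.

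The largest fold change toward class II-high macrophages was that of Il1b. It encodes interleukin-1 beta, a fever-inducing cytokine. Its level in class II-high macrophages was 6.03, 6.92 and 13.4 in the 3 controls and 5.43, 7.38 and 12.7 in the smoking libraries, against 0 to 0.262 in class II-low macrophages. The classes did not overlap in any library. The log2 fold change was 5.89 (SE 0.390, adjusted p = 2.2e-09 by edgeR's quasi-likelihood test) and 6.02 without the large barcode. Il1b was detected in 71 of 139 class II-high macrophages and 10 of 263 class II-low macrophages, shares of 51.1% and 3.802%, beside 0.928% of the spermatid-rich barcodes. Of 17 listed cytokines and growth factors 4 were tested, with Il1b higher and Igf1 lower with and without the large barcode and a median of -0.07 (0.15).

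Chemokines were divided. Cxcl2, which draws in neutrophils, stood at 3.71, 13.7 and 21.1 in controls and 15.5, 18.1 and 27.2 in smoking libraries, against 0.770 to 3.79 in class II-low macrophages; it was higher in 6 of 6 libraries, although control 1 lay below the highest class II-low value. Its log2 fold change was 3.06 (3.27). Ccl4, a macrophage chemokine, rose by 3.38 (3.62) and Ccl3, its neighbour and close relative, by 1.43 (1.69). Ccl24, an eosinophil chemokine, fell by 1.55 (-1.30), from a level of 1.88 ± 0.922 to 0.670 ± 0.570. Of the 22 listed chemokines and receptors 11 were tested, with 3 higher and 1 lower, and 5 higher and 2 lower without the large barcode; the list's median was -0.24 (-0.05), against 0.05 (-0.01) over all genes tested. Ccl8 and Ccl2, also monocyte-attracting chemokines, did not pass the test, at -0.24 (-0.05) and -0.36 (-0.16).

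Cd52, Cd14, Plbd1 and Fxyd5 were higher as well. Cd52, a small glycoprotein of leukocytes, stood at 0.933, 1.46 and 2.95 in controls and 2.52, 2.63 and 2.74 in smoking libraries, and at most at 0.137 in class II-low macrophages. The log2 fold change was 4.40 (SE 0.456, adjusted p = 2.4e-06 by edgeR) and 4.57 without the large barcode. Cd14, the co-receptor for bacterial lipopolysaccharide, stood at 2.25, 4.28 and 6.90 and at 4.04, 5.69 and 10.2, above all class II-low values (0.544 to 0.903), a log2 fold change of 2.57 (2.83). Plbd1, a phospholipase B-like protein, rose by 3.001 (2.93) and Fxyd5, which modulates the sodium pump, by 2.36 (2.52). Plbd1 and Fxyd5 UMIs were also seen in 17.4% and 39.97% of the spermatid-rich barcodes. In the 15-gene list of peritubular and monocyte-derived macrophage markers 6 genes were tested and 3 were higher (Il1b, Cd52, Plbd1), with and without the large barcode, with a median of 1.63 (1.71). Il1b had 0 to 5 UMIs per library in class II-low macrophages, so it was tested through the class where it was higher. This count and median therefore do not speak for the list as a whole. Of 14 listed monocyte genes 1 was tested and did not pass, at -0.52 (-0.26), and at least 3 UMIs of that list were found in 6.47% of class II-high and 8.37% of class II-low macrophages.

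Other genes of that list were too sparse for the test but are described by cells. Mgl2, a lectin, was detected in 46 of 139 class II-high and 11 of 263 class II-low macrophages, Cd72, an inhibitory lectin-like receptor, in 25 and 1, Cd9, a tetraspanin, in 25 and 3, and Napsa, an aspartic protease, in 16 and 1. UMIs of these 4 genes were seen in 0.0232%, 2.62%, 1.04% and 2.57% of the spermatid-rich barcodes. Cx3cr1, the fractalkine receptor often used to mark the tubule-wall population, was tested and did not pass, at -0.53 (-0.32); it was detected in 85 class II-high and 191 class II-low macrophages. No UMI of Itgax was found in either class. Of the 6 tested genes of the list, Cx3cr1 was the one with a negative fold change.

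Within the class II pathway itself only some members moved. The summed level of the listed genes outside the rule was lower in class II-high macrophages in 6 of 6 libraries. It stood at 35.9 ± 3.70 against 46.7 ± 7.59 UMIs per 10000 (medians of libraries). H2-DMa (chr17, plus strand), a chain of the peptide loader, stood at 2.13, 2.09 and 4.16 in controls and 3.02, 3.47 and 2.48 in smoking libraries, above all class II-low values, with a log2 fold change of 1.37 (1.59). H2-DMb1, the other chain, rose by 1.91 (2.18); it has a near-identical neighbour, H2-DMb2, so reads between the pair may be split. Ciita was detected in 31 of 139 class II-high macrophages and in 1 of 263 class II-low macrophages, with 43 UMIs against 1, and was below the filter. None of the 4311 spermatid-rich barcodes had a Ciita UMI. Ctsb, a lysosomal protease, fell by 1.00 on the log2 scale (-0.81), and Ctss, the protease that trims the invariant chain, stood at 8.84 ± 1.49 against 8.53 ± 1.32 and did not pass. Of 20 listed genes of class II presentation outside the rule 7 were tested, with 2 higher and 1 lower, and 2 higher and 2 lower without the large barcode; their median was -0.22 (-0.01).

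Class I genes, whose products show peptides from inside the cell, did not follow. None of the 10 tested members of a 20-gene list was called with or without the large barcode by edgeR, with a median of -0.23 (0.00). H2-K1 stood at 6.75 ± 1.46 in class II-high and 7.02 ± 1.81 in class II-low macrophages, and B2m, the shared light chain, at 7.80 ± 0.722 and 8.93 ± 1.74.

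Immediate early and heat shock genes are switched on rapidly when a cell is stimulated or stressed. All 20 listed genes were tested, and 5 were higher and none lower (13 and none without the large barcode), with a median of 0.60 (0.78) against 0.05 (-0.01) over all genes. Fos, a subunit of AP-1, stood at 22.3, 19.5 and 29.5 in controls and 21.7, 18.6 and 29.4 in smoking libraries, against 6.21 to 12.4 in class II-low macrophages, a log2 fold change of 0.93 (1.13). Atf3, a stress-induced transcription factor, rose by 1.72 (1.93), Junb by 1.07 (1.28), and Hspa1a, an inducible Hsp70, by 2.40 (2.56), with its near-identical copy Hspa1b next to it. Egr1 and Jun did not pass, at 0.09 (0.29) and 0.16 (0.35). The mitochondrial share of UMIs, a sign of RNA quality, was lower in class II-high macrophages in 6 of 6 libraries, at 2.80% ± 0.357 against 3.76% ± 0.322 (SD of the libraries' medians, exact sign-flip permutation p = 0.03125, the smallest 6 pairs allow, 0.097 adjusted over 28 measures). Its part in these differences was not tested.

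Ribosomal protein genes leaned one way. All 81 tested had a positive fold change with and without the large barcode, with a median of 0.49 (0.56). Over all genes tested, 1736 of 3155 were positive with that barcode and 1579 of 3196 without it. Of the 81, 2 passed with it (Rpl13 and Rps24). Without it 62 passed, which were among the 125 genes called higher. Their summed level was higher in 6 of 6 libraries, at 1217 ± 199 against 868 ± 40.3 UMIs per 10000.

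**Figure D3:**
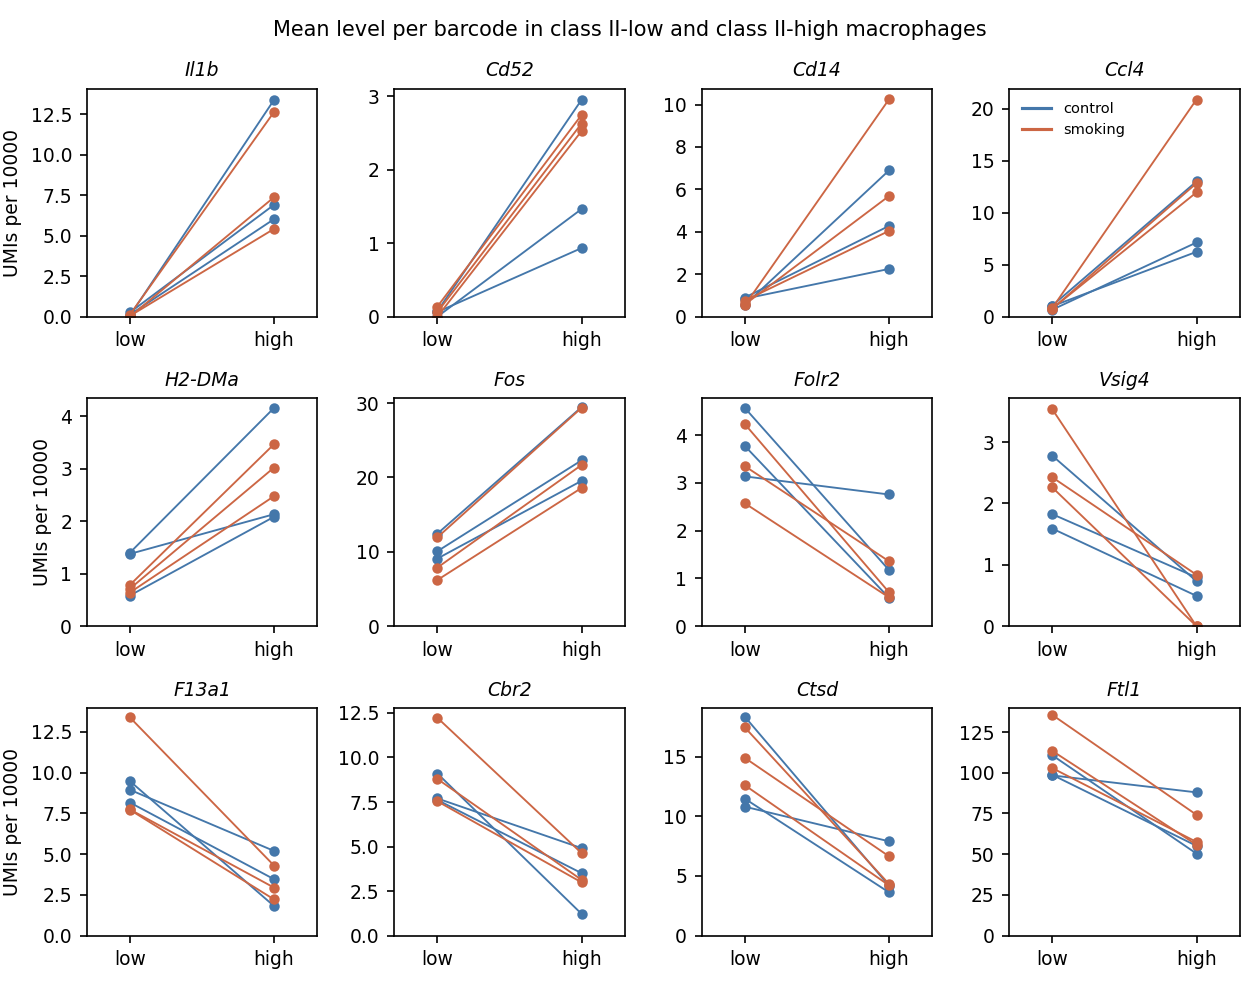
Mean level (UMIs per 10000) of 12 genes in class II-low and class II-high macrophages, each line joining both classes of 1 library (controls blue, smoking libraries orange). The first 6 genes rise in all 6 libraries and the last 6 fall in all 6, Folr2 least in control 1, from 3.14 to 2.76.

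Among markers of resident, interstitial macrophages 9 of 17 tested genes were lower and none higher (14 and none without the large barcode). All 17 had a negative fold change with and without the large barcode, with a median of -1.35 (-1.04). Over all genes tested, 1419 of 3155 were negative with that barcode and 1617 of 3196 without it. Folr2, a folate receptor, stood at 2.76, 0.594 and 1.17 in controls and 0.709, 0.602 and 1.36 in smoking libraries, against 2.57 to 4.57 in class II-low macrophages; control 1 overlapped that range. Its log2 fold change was -1.79 (-1.54). F13a1, a coagulation factor subunit, stood at 5.20, 3.46 and 1.81 and at 4.30, 2.22 and 2.95, below all class II-low values (7.72 to 13.4), at -1.54 (-1.36). Cbr2, a carbonyl reductase, stood at 3.40 ± 1.33 against 8.83 ± 1.79, and Igf1, a growth factor that acts on Leydig cells among others, at 1.59 ± 0.727 against 4.11 ± 0.992. Cd163, the haemoglobin scavenger receptor, did not pass, at -0.90 (-0.72).

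Vsig4, Colec12, Npl, Ctsd, Slc40a1 and Ftl1 were lower too. Vsig4, a receptor for complement-coated particles, had a log2 fold change of -2.41 (-1.99); it was detected in 9 of 139 class II-high and 88 of 263 class II-low macrophages and was at 0 in smoking libraries 1 and 3. Colec12, a scavenger lectin, and Npl, an enzyme of sialic acid breakdown, had log2 fold changes of -1.68 (-1.39) and -2.33 (-1.90). Ctsd, a lysosomal protease, stood at 5.15 ± 1.71 against 14.3 ± 3.15. Slc40a1, the iron exporter ferroportin, stood at 1.16 ± 0.361 against 3.34 ± 0.837 and Ftl1, ferritin light chain, at 63.5 ± 14.5 against 110 ± 14.0, with no overlap for either. These were the 2 genes called, both lower, among 11 tested of a list for iron, oxidative stress and xenobiotics, in which 3 fold changes were positive and the median was -0.48 (-0.33); Hmox1, a heme-degrading enzyme, was the third without the large barcode. Of 20 listed phagocytic and Fc receptors 11 were tested and none was called by edgeR with or without the large barcode, with a median of -0.54 (-0.29). Of 20 lysosome and lipid genes 13 were tested and 2 were lower (Ctsd, Grn); without the large barcode 14 were tested, 6 were lower and Lgals3, a galectin, was higher. The most abundant of that list, Apoe, stood at 145 ± 44.4 against 207 ± 22.6 and did not pass, at -0.62 (-0.42).

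The number of calls depended on single libraries while the large barcode was in the fit. Leaving out control 3 left 15 genes called, control 2 left 33, smoking library 1 left 26, and smoking library 2, which holds that barcode, gave 155. With that barcode out, leaving out any 1 library gave 152 to 264 called genes, which held 62 to 74 of the 75. When the class was set by class II genes making up at least 0.2% of UMIs in place of a number of UMIs, 61 genes were higher and 20 lower. That setting also moved the large barcode into the class II-low sum, so the 2 changes cannot be told apart. Il1b, Cd52, Ccl4, Cxcl2, Cd14, Plbd1, Fxyd5, Hspa1a, Atf3, Vsig4 and Npl passed in every alternative in which they were tested.

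The class II-high macrophages were not alike among themselves, and their levels differed with the amount of class II RNA. The 23 barcodes with 8 to 15 class II UMIs had an Il1b level of 0.440, the 41 with 16 to 63 a level of 4.58, and the 75 with 64 or more a level of 12.9; class II-low macrophages with 4 to 7 class II UMIs stood at 0.0577. Cd52 ran over the same steps from 0.188 to 0.707 and 3.83, and Cd14 from 0.576 to 3.51 and 7.97. The resident marker F13a1 ran from 6.08 to 4.33 and 1.45, and Vsig4 from 2.34 to 0.180 and 0.234. In the step just under the threshold F13a1 stood at 7.20 and Vsig4 at 1.92, near their levels at 8 to 15 class II UMIs, while Il1b and Cd52 both stood at 0.0577 there, below theirs. Median depth was 4929, 4622 and 4349 UMIs per barcode over the 3 steps.

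**Figure D4:**
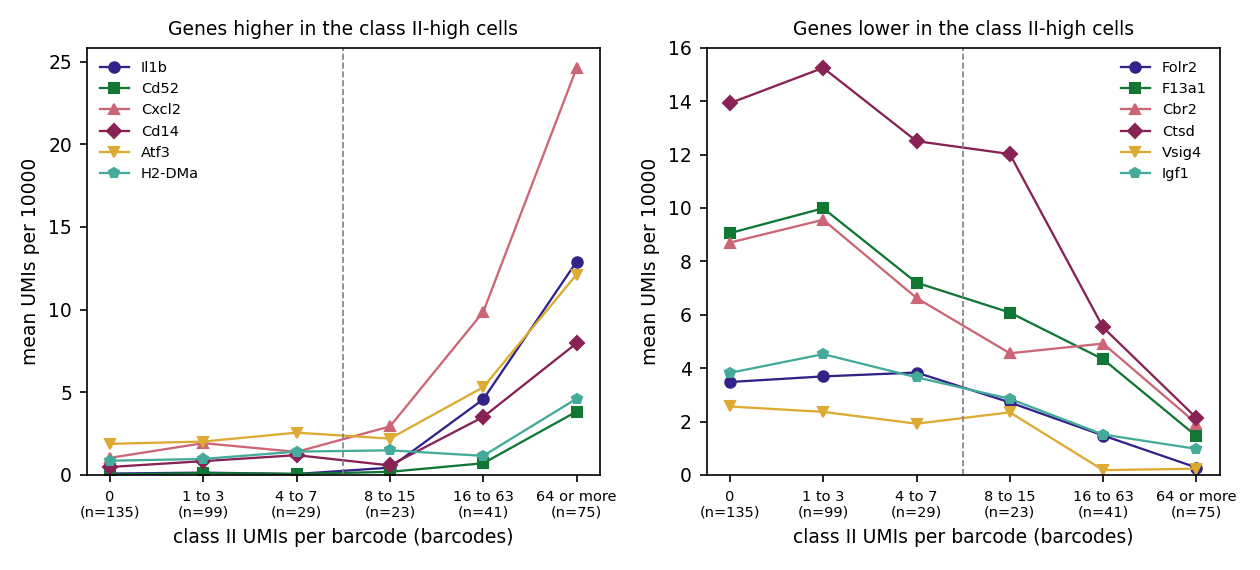
Mean level (UMIs per 10000) of 12 genes over macrophage barcodes grouped by class II UMIs, all libraries together, with the number of barcodes under each step and the rule's threshold dashed. Il1b, Cxcl2 and Cd14 stand highest in the step of 64 or more, and F13a1, Ctsd and Folr2 lowest there.

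Over the 139 barcodes, Spearman's rho with class II UMIs per 10000 was 0.54 for Il1b, 0.55 for Cd52, 0.55 for Cd14 and 0.48 for H2-DMa, and -0.54 for F13a1, -0.56 for Ctsd and -0.47 for Folr2. The cells share libraries, and the resident genes also moved with depth: rho with the UMI total was 0.53 for F13a1 and 0.52 for Ctsd, against -0.20 for Il1b. Sorted by 2 features chosen after their values were seen, 71 of the 139 had an Il1b UMI, 58 had at least 2 of Folr2, Vsig4, F13a1 and Cbr2, 11 had both and 21 had neither. The first kind made up 31.2%, 38.1% and 64% in the 3 controls and 50%, 53.5% and 66.7% in smoking libraries 1 to 3. The second made up 75%, 42.9% and 24.0% and 40.9%, 39.5% and 41.7%. Control 1 stood apart as the library whose class II-high macrophages were mostly of the second kind, 12 of 16.

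Some transcripts varied widely among these cells, and a few lay in very few of them. By the ratio of observed to Poisson variance, Apoe ranked first of 2662 genes with at least 0.5 UMI per barcode. Its median level was 124, with quartiles at 2.91 and 237, and it was detected in 113 of the 139. The large barcode was counted in this ranking, and its part in the ranking was not tested. Cd74 was the fifth, with quartiles at 25.6 and 147. Between and behind them came the spermatid transcripts Prm1 and Tnp2, the mitochondrial genes mt-Co1, mt-Co2, mt-Co3 and mt-Atp6, the nuclear RNA Malat1, and Ptgds, a prostaglandin synthase. Of 1814 Ptgds UMIs 97.8% lay in 3 barcodes. Retnla, a marker of alternative activation, held 456 UMIs in 3 of the 139 barcodes, 377 of them in a single one of control 3, and none in any class II-low macrophage.

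Other cell types were looked for with marker lists. Of the 15 genes of the dendritic cell list, Flt3, Xcr1 and Clec9a had no UMI in the 139 barcodes, and Cd209a was seen in 3. The list as a whole held 356 UMIs in them. The B-cell genes Cd79a, Ms4a1, Igkc, Jchain and Pax5 had none, nor had 9 of 10 neutrophil and mast cell genes, and Lck, Nkg7 and Gzma of the T and NK cell list. At least 3 UMIs of the dendritic cell list were nevertheless found in 37 class II-high and 93 class II-low macrophages, of the B and plasma cell list in 13 and 40, of a Leydig cell list in 16 and 37, of a Sertoli cell list in 34 and 85, and of the spermatid list in all 402. Spermatid transcripts stood at 568 ± 69.9 against 494 ± 94.8 UMIs per 10000 (medians of libraries, higher in 5 of 6). Without the large barcode the Leydig gene Fabp3 and the Sertoli gene Defb19 were among the genes called higher; their part in the other differences was not tested. The caller of doublets, barcodes holding 2 cells, marked 0 to 4 class II-high and 4 to 15 class II-low macrophages per library, and not the large barcode; without the marked ones 43 genes were higher and 126 lower.

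Whether smoke changed the number of these cells was compared next. Class II-high macrophages made up 22.2%, 38.9% and 34.2% of macrophages in the 3 controls and 36.1%, 53.1% and 19.7% in smoking libraries 1 to 3. The smoking libraries held both the highest and the lowest share, and the groups overlapped. The means were 31.8% ± 8.60 and 36.3% ± 16.7 (SD, n = 3, exact two-sided permutation p = 0.9, where 3 against 3 cannot go below 0.1). Exact Clopper-Pearson 95% intervals, which cover counting error only, ran from 13.3% to 33.6% in control 1, from 41.7% to 64.3% in smoking library 2 and from 10.6% to 31.8% in smoking library 3. Of all barcodes within the mitochondrial limit they made up 0.193%, 0.244% and 0.297% in controls and 0.265%, 0.491% and 0.128% in smoking libraries (exact p = 0.8). The mean difference in the share of macrophages was 4.49 percentage points, and 4.29 without the large barcode (exact p = 0.9); that in the share of all barcodes within the limit was 0.0499 and 0.049 (exact p = 0.8). The first turned to -3.92 without smoking library 2, -0.29 without control 1, -1.36 at a minimum of 4 class II UMIs and -0.95 when barcodes were thinned to 3000 UMIs.

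**Figure D5:**
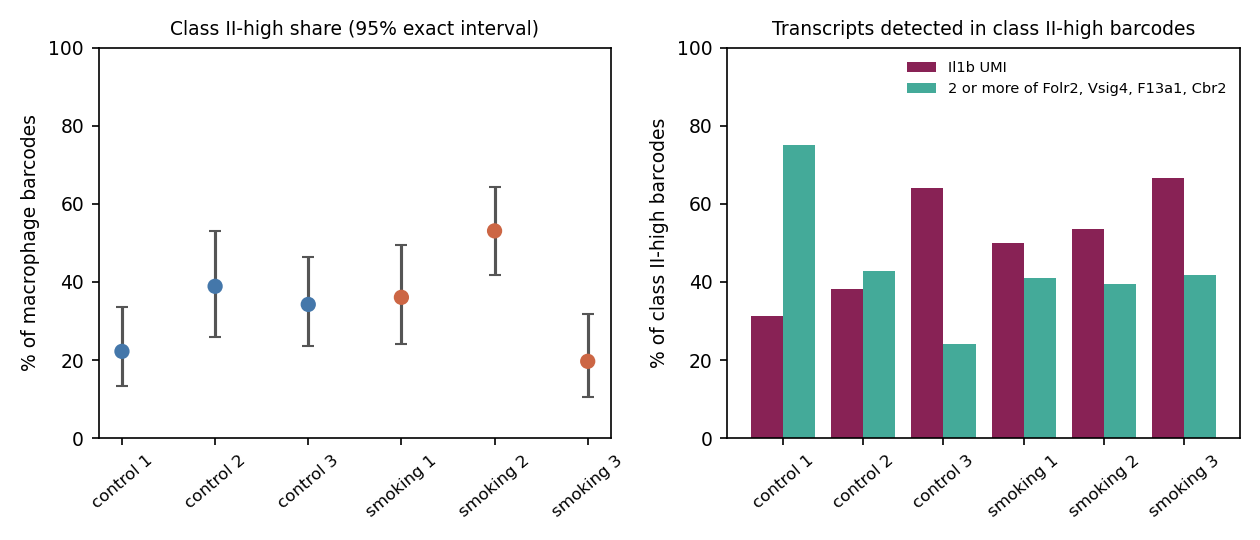
Left, share of class II-high barcodes among macrophage barcodes in each library with exact 95% binomial intervals (controls blue, smoking libraries orange). Right, share of class II-high barcodes with an Il1b UMI or with at least 2 of 4 resident genes; the smoking libraries span 19.7% to 53.1% on the left, and control 1 is highest in resident genes at 75%.

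Whether smoke changed the RNA of these cells was tested on the 6 sums. With edgeR's quasi-likelihood test 0 of 1594 genes passed (0.0%), and 38 had an unadjusted p under 0.05. Calls also numbered 0 by DESeq2 and by limma-voom, where 25 and 50 genes were under 0.05. Without the large barcode 0 of 1579 genes passed (0.0%), with 50 under 0.05. Counts were also simulated from the mean levels and depths of these libraries, with a spread between libraries set beforehand rather than estimated. There the same test recovered 85 of 100 genes changed 4-fold and 50 of 100 changed 2-fold, and 81 and 41 without the large barcode. It also called 6 unchanged genes, and 3 without the large barcode. Since the real spread was not used, the simulation cannot tell which changes would be found in these data. The difference of the smoke effect between class II-high and class II-low macrophages gave 0 of 3155 genes (0.0%) by edgeR, 117 of them under an unadjusted 0.05, with 0 by DESeq2 and by limma-voom, and 0 of 3196 (0.0%, 85 under 0.05) without the large barcode.

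The class II genes chose these cells, so their values by group are a description. The median number of class II UMIs per cell was 17.5, 60 and 75 in the control libraries and 80, 116 and 108 in smoking libraries 1 to 3, without overlap. The exact permutation p was 0.1, the lowest that 3 against 3 libraries allow, and it did not pass after adjustment over 32 measures. Scaled to 10000 UMIs the medians were 30.3, 118 and 210 and 197, 202 and 258, which overlap. Cd74 had a log2 fold change of 0.29 for smoking over control and 0.62 without the large barcode, 0.07 without control 1 and 0.11 at a minimum of 16 class II UMIs. H2-Aa stood at 0.33 and 0.67 in turn, 0.19 without control 1 and 0.13 at that minimum. H2-Eb1 stood at 0.93 and at 0.39 without control 2, the library with 4 H2-Eb1 UMIs. The values without a control library and at that minimum still included the large barcode. For Cd74 and H2-Aa they are therefore to be set against 0.29 and 0.33.

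The genes with the smallest p-values are given as values only, at adjusted p = 1.0 by edgeR. With the large barcode included, those leaning up in smoking libraries were Rnf151, Ccser2, Tssk1, Fndc11 and 1700006E09Rik, each with its highest value in smoking library 2; Rnf151 stood at 276, 410 and 352 CPM (UMIs scaled to the library's sum) in controls and 516, 1815 and 472 in smoking libraries. Leaning down were Rnf10, Lpin1, Pcbp1, Fsip2 and Gnas. Of the 15 listed spermatid genes, all tested, 12 had a positive fold change with the large barcode and 0 without it. Over all genes tested, 847 of 1594 were positive with it and 799 of 1579 without it. Without that barcode the upper set was Ccl4, Ms4a6c, Ccl8, H2-Aa and Arpc1b and the lower set Rnf10, 4933411K16Rik, Wdfy1, Col22a1 and Chrac1. H2-Aa is a gene of the rule and stands here as a description. Ccl8, a monocyte chemokine, stood at 553, 454 and 917 CPM in controls and 428, 2327 and 3955 in smoking libraries, high in 2 of the 3. Rnf10, a ring finger protein, was the single gene in both sets: it stood at 211, 144 and 147 in controls and 32.96, 49.7 and 35.0 in smoking libraries, without overlap, with a log2 fold change of -1.87 (SE 0.516). Without the large barcode smoking library 2 stood at 63.4 and the log2 fold change was -1.63 (SE 0.387).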

How the data were processed

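Single cells of testis were profiled with 10x Genomics 3′ chemistry in 3 control and 3 smoking libraries. The authors deposited raw UMI counts per gene and barcode, with reads aligned to mm10 per the submitters' processing notes, which name CASAVA 1.8 and Cell Ranger 7.1.0, while the file headers give software version 3.1.0. The rule above chose the barcodes, and doublets were kept in the main values. Counts were summed per library and class. Smoking against control, high against low (library as a block) and their interaction were tested with edgeR 4.0.16 (quasi-likelihood, TMM scaling, filterByExpr with a minimum count of 10 and total of 15, Benjamini-Hochberg over all genes tested), and checked on simulated data with 100 genes changed at each fold. DESeq2 1.42.0 and limma 3.58.1 (voom) were alternatives. Single library values were compared by exact permutation. Pairing by library in the high against low comparison is given by the design, since both classes come from the same library; replicate numbers do not link controls to smoking libraries.

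Genes were named by a rule: the 15 largest called changes in each direction among genes averaging 50 CPM or more whose sign was shared by 6 of 6 libraries; for smoke, the 5 smallest p-values in each direction; list members with the highest means or a call; and the 10 most variable genes. The cells, the lists and the rules were chosen with earlier results of these data known. The grouping by class II UMIs, the spermatid-rich barcodes and the genes held by few barcodes were chosen after their values were seen. Promoter sequences are RefSeq's. Some named genes are not reported here.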

Additional observations from a re-analysis of the deposited data

How the results depend on the processing

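The count of genes that differed between class II-high and class II-low macrophages was 75. It was 161 with no filter on low counts, 118 at a minimum of 16 class II UMIs, 169 with doublets removed, 211 with barcodes thinned to 3000 UMIs and 228 without the barcode over 50000 UMIs. Leaving out 1 library gave 15 to 155, and, with that barcode also out, 264, 190 and 152 without controls 1 to 3 and 183, 155 and 254 without smoking libraries 1 to 3. With no replicate block, which drops the pairing of the classes by library, 81 genes passed, 67 of them among the 75. Over 45 named genes, 849 of 949 alternative values kept direction and call, 100 kept only the direction, and none changed sign. These genes were named because they were called in the main fit on the same cells, so the kept signs are no separate support.

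For smoke in class II-high macrophages, 2 genes passed with no filter (Ubqln5 higher, with 91.2% of its UMIs in a single barcode, and Retnla lower), and leaving out 1 library gave 0 to 1. The difference of the smoke effect between classes gave 3 genes with no filter, 1 with class II genes at 0.2% of UMIs and 2 after thinning. The share of macrophages differed by 4.49 percentage points, -1.36 at a minimum of 4 UMIs and -0.954 after thinning, with -3.92 to 12.8 on leaving out 1 library. The share of barcodes within the mitochondrial limit differed by 0.0499 points, with -0.0486 to 0.133. Of 22 genes named for smoke, 2 changed sign, both uncalled. Wdfy1 stood at -0.91 with class II at 0.2% of UMIs, -0.03 without control 3, -0.82 without smoking library 2 and -0.85 without the large barcode, and at most at 0.31 on leaving out 1 library. Col22a1 stood at -1.32 without smoking library 2 and -1.13 without the large barcode, and at most at 0.44 on leaving out 1 library. The causes were not tested.

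With 12 to 43 class II-high barcodes per library, most genes had too few UMIs to be tested, and sums over so few cells follow single barcodes. Differences between smoking and control libraries can be missed at this size. Rnf10, named for its small p-value, had a log2 fold change of -1.87 (SE 0.516) and did not pass. Whether it truly differs cannot be told from these libraries. In the simulation 50 of 100 2-fold changes were recovered. Its spread was not taken from these data, so that figure does not carry over to them.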

Other observations

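Class II RNA was also found outside the macrophages. Among barcodes within the mitochondrial limit, 87 had at least 8 class II UMIs without meeting the macrophage rule, against 139 that met it. Their median was 75082 UMIs, 49 held over 50000 UMIs and 58 had no UMI of the 6 macrophage genes. H2-Ab1 gave 685 of their 1293 class II UMIs, 53.0%.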
